A study of Homo sapiens with 10 samples.

Results

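The comparison set all 6 deletion clones of EA.hy926 cells against all 4 control libraries, to find changes shared by cells that had been cut with Cas9 at either of 2 loci. Every library of the series entered it, 10 of 10 samples, and none was chosen by its expression. EA.hy926 is an established human line made by fusing umbilical vein endothelial cells with A549 lung carcinoma cells. RNA-Seq had been carried out on rRNA-depleted total RNA from 3 clones in which the promoter of the lncRNA *VEGFA-LNC* was deleted with paired gRNAs and Cas9 ribonucleoprotein, 3 clones with the same kind of deletion at *VEGFC-LNC*, and 2 controls for each deletion. *VEGFA-LNC* is transcribed antisense to *VEGFA*, and *VEGFC-LNC* lies upstream of *VEGFC*. The controls of a set received gRNAs without Cas9, so that exposure to gRNAs was shared by all 10 libraries. The paper states that they passed through the same clonal selection. It is not stated that each control library is a single clone. Growth from a single cell may therefore differ between clones and controls and cannot be told apart here from the cut. Each deletion library is 1 clone grown from a single cell. The labels do not say whether both controls of a set came from separate clones or cultures, and this was not tested. The p-values rest on a spread pooled over clones and controls, and they count the 4 controls as independent. They are therefore no measure of the spread between clones alone. Neither lncRNA was matched by name to a row of the expression table, so that the loss of the deleted RNAs was not checked here.

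Cas9 cuts both DNA strands, and a pair of cuts is joined by end-joining repair with loss of the stretch between them. Cut DNA can activate p53, which raises genes that stop the cell cycle or induce cell death. A clone grown from 1 cell also carries whatever expression state and chromosome content that cell had, and this is known to vary within transformed lines. In the endothelium, *VEGFA* drives the growth of blood vessels and *VEGFC* that of lymphatic vessels, and the surface of resting endothelium is marked by glycoproteins such as endomucin.

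The libraries held between 6743974 and 24197623 reads, with *VEGFC-LNC* clone 3 the shallowest. Of 27945 gene symbols, 13333 had FPKM multiplied by length in kilobases of at least 1 in at least 2 libraries and were tested. The 6 endothelial markers were measured in every library, *CDH5* at 56.6 to 312 FPKM and *PECAM1* at 13.9 to 159 FPKM, and their summed level was 145 to 632 FPKM in the clones and 244 to 257 FPKM in the controls. Of the epithelial markers, *KRT8* and *KRT18* were at 95.2 FPKM or more in every library, and *EPCAM* and *CDH1* stayed at or below 0.505 FPKM. Summed fibroblast markers reached 0.462 FPKM in the clones and 0.67 FPKM in the controls. Summed leukocyte markers, mostly *LYZ*, reached 4.73 FPKM in the clones and 4.38 FPKM in the controls. In log2 units, clones of a set had a median SD per gene of 0.287 (*VEGFA-LNC*) and 0.249 (*VEGFC-LNC*), against 0.065 and 0.0639 between the controls of a set. The sets themselves differed without any cut, with 1690 genes differentially expressed between their controls.

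Between the 6 clones and the 4 controls, 14 of the 13333 genes were differentially expressed, 0.105% of those tested. Of these, 12 (0.09%) were downregulated in the clones and 2 (0.015%) were upregulated. The test was limma on log2(FPKM + 0.1) with the set as a covariate, and a differentially expressed gene (DEG) had a false-discovery rate (FDR) under 0.05 by the Benjamini-Hochberg method and differed by 1.5-fold or more in either direction (fold change, FC). At an unadjusted p under 0.05 there were 2284 of the 13333 genes. Counts at this limit given below for gene lists are to be read beside that share. The downregulated genes were *LINC01425*, *EMCN*, *ADAMTS9*, *SPRR2B*, *HLA-DRB1*, *SPRR2A*, *TNC*, *LCP2*, *HRH2*, *GLIPR1*, *TRIML2* and *RAPH1*, and the upregulated genes were *ABCA1* and *SCARNA10*. In all 14, the 3 clones of each set lay beyond both controls of that set. Over all tested genes this was so for 770 genes on the lower side (5.78%) and 350 on the higher side (2.63%). In 13 of the 14, every clone also lay beyond all 4 controls, as in 268 (2.01%) of all genes on the lower side and 143 (1.07%) on the higher side. *GLIPR1* was the exception. In bulk RNA a lower level in a clone cannot be told apart from fewer cells that express the gene.

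The number of DEGs depended on single libraries. It rose from 14 to 1322 without *VEGFA-LNC* clone 1 and to 43 without *VEGFC-LNC* clone 1. It fell to 8 without *VEGFA-LNC* clone 2, to 4 without *VEGFA-LNC* clone 3, to 2 without *VEGFC-LNC* clone 2 and to 7 without *VEGFC-LNC* clone 3. Without a control it fell to 2 or 3 in the *VEGFA-LNC* set and to 2 in the *VEGFC-LNC* set. A fit of the 4 groups that takes the mean of both effects gave 89 DEGs, 20 higher and 69 lower in the clones, and all 14 were among them. *ADAMTS9* stayed a DEG under each of the 24 alternatives tried and *LINC01425* under 20 of them, *SPRR2B* under 16 and the other 11 genes under 8 to 12. With the controls of a set averaged, so that both count as 1 sample, *ADAMTS9* was the only gene called. None of the other DEGs passed in that fit. The exact permutation test within the sets has 100 arrangements and a smallest possible p of 0.01, two-sided. Each of the 14 genes gave that p. With no overlap in either set, the observed arrangement is the most extreme in its own direction, so that this p adds no support of its own.

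**Figure D1:**
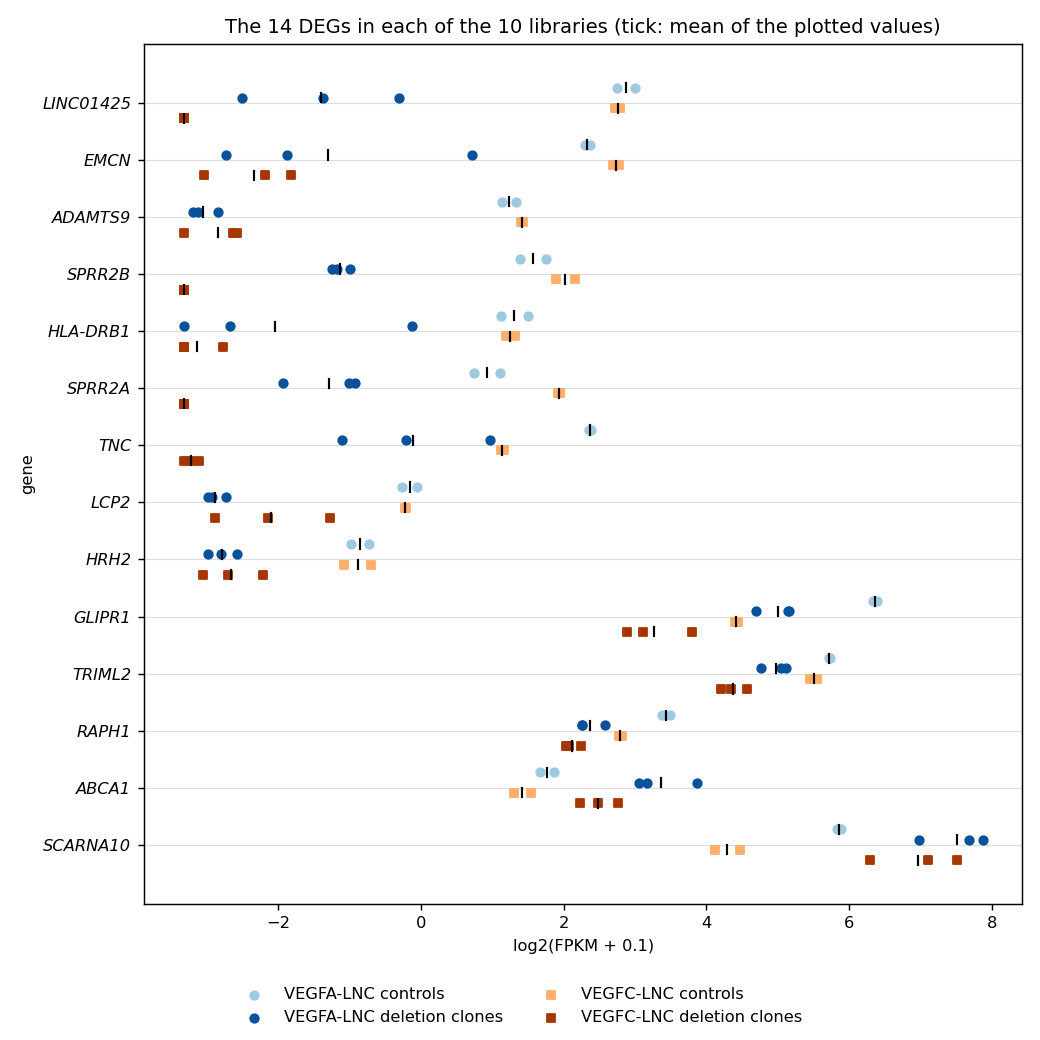
Level of each of the 14 DEGs as log2(FPKM + 0.1), with 1 point per library, colours for the 4 groups and a tick at the mean of the plotted values. In the 12 genes at the top every clone lies left of both controls of its own set, and *SPRR2A*, *SPRR2B* and *LINC01425* sit at the lowest possible value in all 3 *VEGFC-LNC* clones.

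*SPRR2A* and *SPRR2B* stood out as neighbours of a single gene family, and their upstream sequences are shown because the pair fell together. They encode small proline-rich proteins, which are cross-linked into the cornified envelope of keratinocytes. The bases directly before the RefSeq start of each gene were taken from GRCh38.p14, for *SPRR2A* at chr1:153057513-153057762 and for *SPRR2B* at chr1:153071612-153071861, both on the minus strand. Capitals mark ATTTGCAT, the octamer bound by POU factors, ACTTCCTG, a sequence of the kind bound by ETS factors, and TATAAA, the TATA box, each searched on both strands.
SPRR2A: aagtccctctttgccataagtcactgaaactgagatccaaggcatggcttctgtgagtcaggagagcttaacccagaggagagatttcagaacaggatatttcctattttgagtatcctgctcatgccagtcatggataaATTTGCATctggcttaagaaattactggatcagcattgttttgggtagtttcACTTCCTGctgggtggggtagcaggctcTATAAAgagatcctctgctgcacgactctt
SPRR2B: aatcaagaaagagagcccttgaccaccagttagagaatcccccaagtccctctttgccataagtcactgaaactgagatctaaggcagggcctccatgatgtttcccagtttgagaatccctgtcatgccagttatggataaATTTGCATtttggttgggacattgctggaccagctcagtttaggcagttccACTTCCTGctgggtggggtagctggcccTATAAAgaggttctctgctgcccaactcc
The 3 elements came in the same order in both, and in a global alignment 174 of 293 columns were identical (59.4%). Over the same 250 bases of all 35116 RefSeq promoters, 1.63% held the octamer, 2.6% the ETS sequence, 10.7% the TATA box and 0.0114% all of them. RefSeq promoters were at hand for 10 of the 14 DEGs, and no other DEG held all 3. The strings searched are ones that stand in both of these promoters, and the genes are near copies. The shares therefore describe the strings and are no test of the pair. A match of letters is no evidence of binding.

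*SPRR2B* (NM_001017418, chromosome 1, 153042704 to 153044084 on hg19) was at 3.26 and 2.51 FPKM in the *VEGFA-LNC* controls and 0.401, 0.323 and 0.343 FPKM in their clones. It was at 3.61 and 4.37 FPKM in the *VEGFC-LNC* controls and at 0 in all 3 clones. The groups were apart in both sets, and the log2 FC over both was -4.03 ± 0.448 (SE, FDR = 0.0183). *SPRR2A* (NM_005988, chromosome 1, 153028596 to 153029988) was at 2.05 and 1.58 FPKM in the *VEGFA-LNC* controls, at 0.4, 0.161 and 0.427 FPKM in the clones, at 3.76 and 3.68 FPKM in the *VEGFC-LNC* controls and again at 0 in their clones, with a log2 FC of -3.73 ± 0.531 (FDR = 0.0389). With a floor of 3 reads per library, the *VEGFC-LNC* clones were at least 6.02-fold lower than their controls for *SPRR2B* and at least 5.63-fold lower for *SPRR2A*. The *VEGFA-LNC* clones were 6.51-fold and 4.64-fold lower on the scale of the fit. The fitted differences between the sets, 2.65 (FDR = 0.00849) and 3.04 (FDR = 0.0196) on the log2 scale, rest on clones with no reads and therefore on the pseudocount. The bounds hold no pseudocount and the values on the scale of the fit do. They therefore do not show for either gene that it was lower by more in the *VEGFC-LNC* set. The genes are near copies of each other and of further family members, between which reads can be split. The read numbers are small, from 23 to 71 per control library for *SPRR2B* and 24 to 60 for *SPRR2A*. Of the 32 cornified envelope genes listed, 7 were tested, 2 were downregulated and 5 did not pass. The 7 had a median log2 FC of -2.49, against -0.0827 over all tested genes. Of these, *SPRR2A*, *SPRR2B* and *PRR9* reached the limit of the filter in control libraries alone. A low median is in part built in by that and is no evidence of a change of the family. *LCE2A*, a late cornified envelope gene, was at 5.67 and 4.14 against 4, 0.369 and 0.489 FPKM in the *VEGFA-LNC* set and at 2.33 and 1.76 against 0.379, 0.092 and 0.252 FPKM in the *VEGFC-LNC* set, which missed the threshold (log2 FC -2.49 ± 0.559, FDR = 0.123).

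The DEG with the smallest FDR was *ADAMTS9* (NM_182920, chromosome 3, 64501331 to 64673365), a secreted metalloprotease that cleaves the matrix proteoglycans versican and aggrecan. It was at 2.43 and 2.11 FPKM in the *VEGFA-LNC* controls and at 0.009, 0.015 and 0.04 FPKM in the clones. In the *VEGFC-LNC* set it was at 2.59 and 2.54 FPKM in the controls and at 0.068, 0 and 0.061 FPKM in the clones. The gene was thus near 0 in all 6 clones, with 0 to 11 reads per clone against 179 to 447 per control. The log2 FC was -4.28 ± 0.21 (FDR = 2.3e-05), with -4.29 in the *VEGFA-LNC* set and -4.26 in the *VEGFC-LNC* set. FDRs over the alternatives ran from 2.42e-06 to 0.033. The 19 tested genes within 5 Mb of its start had median log2 FCs of 0.0961 and -0.191 in the 2 sets. *ADAMTS9* overlaps *ADAMTS9-AS1* and *ADAMTS9-AS2* on the other strand, and the counting is not stated to use strand. Of 11 tested genes of the ADAMTS family, 1 was downregulated, 10 did not pass, and the median log2 FC was -0.427. *ADAMTS1*, which cleaves the same proteoglycans, was at 11.2 and 11.4 against 5.04, 10.6 and 2.06 FPKM and at 9.49 and 9.99 against 4.07, 5.23 and 2.88 FPKM, without passing (log2 FC -1.25 ± 0.367, FDR = 0.18).

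*EMCN* (NM_016242, chromosome 4, 101316498 to 101439250) encodes endomucin, a sialoglycoprotein of the endothelial surface. It was at 4.83 and 5.06 FPKM in the *VEGFA-LNC* controls and 0.05, 1.54 and 0.172 FPKM in their clones, of which clone 2 kept the most. In the *VEGFC-LNC* set the controls were at 6.39 and 6.74 FPKM and the clones at 0.022, 0.121 and 0.184 FPKM. The log2 FC was -4.36 ± 0.608 (FDR = 0.0389). *EMCN* was the only DEG among 33 tested endothelial genes, whose median log2 FC was 0.133, and 32 of them did not pass. All 6 clones lay below their own controls also for *NOS3*, the endothelial nitric oxide synthase (67 and 66.8 against 38.8, 66 and 40.3 FPKM, and 68.4 and 67.1 against 49.7, 40.8 and 43.2 FPKM, FDR = 0.158), and for *PLVAP*, the diaphragm protein of fenestrated endothelium (FDR = 0.251). The 6 endothelial markers had a median log2 FC of 0.229, and none passed.

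*TNC* (NM_002160, chromosome 9, 117781854 to 117880536) encodes tenascin C, a matrix glycoprotein of remodelling tissue. The *VEGFA-LNC* controls had 5.04 and 5.11 FPKM and the clones 0.769, 0.367 and 1.85 FPKM. The *VEGFC-LNC* controls had 2.14 and 2.08 FPKM and the clones 0.016, 0.006 and 0 FPKM, with 3, 1 and 0 reads. The decrease was present in both sets (log2 FC -3.42 ± 0.444, FDR = 0.0389). Among 30 tested genes of the matrix and basement membrane, *TNC* was the 1 that was downregulated, 29 did not pass and the median log2 FC was -0.0949. The fibrillin genes *FBN1* and *FBN2*, whose products form microfibrils, had every clone below its own controls, with log2 FCs of -0.80 ± 0.158 (FDR = 0.103) and -1.15 ± 0.31 (FDR = 0.158).

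*HLA-DRB1* (NM_002124, chromosome 6, 32546547 to 32557613), the beta chain of an MHC class II molecule, was at 2.08 and 2.72 FPKM in the *VEGFA-LNC* controls and at 0.057, 0.822 and 0 FPKM in the clones, and at 2.39 and 2.19 FPKM in the *VEGFC-LNC* controls and at 0, 0.046 and 0 FPKM in the clones. Only *VEGFA-LNC* clone 2 kept more than 1 read, with 18. The log2 FC was -3.87 ± 0.549 (FDR = 0.0389), for a gene whose close paralogs can share its reads. Of 8 tested class II genes, 1 was downregulated and 7 did not pass, with a median log2 FC of -1.06. *HLA-DRB1* reached the limit of the filter in control libraries alone, which by itself favours a low value. The alpha chain gene *HLA-DRA* went from 2.75 and 2.96 to 0.686, 1.11 and 0 FPKM and from 5.54 and 6.55 to 0.035, 0.382 and 0.116 FPKM, and missed the threshold (log2 FC -3.68 ± 0.703, FDR = 0.0908). *HLA-DPA1* lay below the own controls in all 6 clones too (log2 FC -1.07 ± 0.213, FDR = 0.107). *CIITA*, the transactivator of these genes, did so in 5 clones and not in *VEGFA-LNC* clone 1, which was at 1.15 FPKM against 0.956 and 1.19 FPKM (FDR = 0.175).

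*LCP2* (NM_005565, chromosome 5, 169673237 to 169724846), an adaptor of antigen receptor signalling, was at 0.861 and 0.736 FPKM in the *VEGFA-LNC* controls against 0.031, 0.051 and 0.027 FPKM. In the *VEGFC-LNC* set it was at 0.764 and 0.754 FPKM against 0.313, 0.127 and 0.035 FPKM. The clones of the first set were thus all near 0, and those of the second were spread out (log2 FC -2.30 ± 0.321, FDR = 0.0389). *HRH2* (NM_001131055, chromosome 5, 175085040 to 175113245), the histamine H2 receptor that couples to adenylyl cyclase, was low throughout, at 0.406 and 0.504 against 0.026, 0.043 and 0.068 FPKM and at 0.372 and 0.519 against 0.053, 0.021 and 0.116 FPKM. Clones held 1 to 3 reads and controls 9 to 32 (log2 FC -1.85 ± 0.24, FDR = 0.0389). It was the only DEG of 39 tested cAMP signalling genes, of which 38 did not pass and whose median log2 FC was -0.116. In 9 of the 39 (23.1%, against 5.78% of all genes) all clones were below their own controls, such as *ADCY2*, an adenylyl cyclase (1.29 and 1.51 against 0.814, 0.224 and 0.15 FPKM, and 0.549 and 0.621 against 0.13, 0 and 0 FPKM, FDR = 0.09).

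The most abundant of the downregulated genes had smaller FCs. *GLIPR1* (NM_006851, chromosome 12, 75874513 to 75895716), a secreted or membrane-bound protein first described in glioma, was at 80.8 and 83.9 FPKM in the *VEGFA-LNC* controls and 35.7, 25.9 and 35.4 FPKM in the clones. In the *VEGFC-LNC* set it was at 21.1 and 21.6 FPKM and 8.54, 7.33 and 13.8 FPKM. The *VEGFC-LNC* controls were therefore below the *VEGFA-LNC* clones, while the decrease within each set was similar, 2.57-fold and 2.23-fold (log2 FC -1.26 ± 0.176, FDR = 0.0389). *GLIPR1* overlaps *KRR1* on the other strand, whose log2 FC was -0.23 ± 0.148 (FDR = 0.436). *TRIML2* (NM_173553, chromosome 4, 189012426 to 189026741), a tripartite motif family protein, was at 53.1 and 52.4 FPKM against 27.1, 34.5 and 33.1 FPKM, and at 47 and 43.6 FPKM against 23.7, 20.3 and 18.3 FPKM (log2 FC -0.94 ± 0.123, FDR = 0.0389). The 20 tested genes within 5 Mb of it had median log2 FCs of -0.208 and -0.594 in the 2 sets, so that its neighbourhood was lower as well in the *VEGFC-LNC* clones. *RAPH1* (NM_203365, chromosome 2, 204306192 to 204400058) encodes lamellipodin, which promotes actin-based protrusion of the leading edge. It was at 10.3 and 11.2 against 5.89, 4.69 and 4.7 FPKM and at 6.74 and 6.95 against 4.1, 4.66 and 3.99 FPKM (log2 FC -0.87 ± 0.126, FDR = 0.042).

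The long noncoding RNA *LINC01425* (NR_109958, chromosome 21, 23119305 to 23169735) fell with a fitted log2 FC of -5.18 ± 0.451 (FDR = 0.00284), a size that depends on the pseudocount because some clones had no reads. It was at 7.92 and 6.63 FPKM in the *VEGFA-LNC* controls and 0.712, 0.287 and 0.076 FPKM in their clones, or 104 and 113 reads against 8, 4 and 1. In the *VEGFC-LNC* set it was at 6.84 and 6.51 FPKM, 49 and 119 reads, against no read in any clone. The last is a decrease of at least 11.3-fold at a floor of 3 reads per library. The 8 tested genes within 5 Mb had median log2 FCs of 0.28 and -0.136.

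Upregulated in all 6 clones was *ABCA1* (NM_005502, chromosome 9, 107543284 to 107690527), the transporter that passes cellular cholesterol to apolipoprotein A-I. It went from 3.07 and 3.54 to 8.22, 8.88 and 14.5 FPKM in the *VEGFA-LNC* set and from 2.36 and 2.81 to 4.57, 6.68 and 5.48 FPKM in the *VEGFC-LNC* set, without overlap with any control. This is 2.52-fold over both sets (log2 FC 1.33 ± 0.198, FDR = 0.0488). Of 25 tested cholesterol synthesis genes none passed (3 at an unadjusted p under 0.05), and their median log2 FC was -0.423, with -0.122 and -0.713 in the 2 sets. *SCARNA10* (NR_004387, chromosome 12, 6619388 to 6619717), a small Cajal body RNA of the family that guides the modification of spliceosomal RNAs, went from 56.6 and 59.4 to 126, 205 and 234 FPKM and from 22.1 and 17.3 to 78.5, 182 and 138 FPKM. The increase was 4.48-fold (log2 FC 2.16 ± 0.29, FDR = 0.0389). *SCARNA10* lies inside *NCAPD2* on the same strand, a condensin gene whose own log2 FC was -0.96 ± 0.464 (FDR = 0.315), so that reads of unspliced *NCAPD2* can fall in it. Of 99 tested small nucleolar and Cajal body RNAs, 1 was upregulated and 98 did not pass, and their median log2 FC was 0.205, which was -0.182 without the filter on low values. *SNORD97* was nearest to the threshold in this list, at 4.89 and 7.22 against 7.63, 30 and 24.9 FPKM and at 4.48 and 5.28 against 18, 27.6 and 32.6 FPKM (FDR = 0.09).

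Further genes were higher in all 6 clones than in their own controls and had the next smallest p-values without passing, with FDRs from 0.0636 to 0.089. *PLPP2*, a lipid phosphate phosphatase, was at 13.5 and 16 against 24.2, 32.1 and 27.4 FPKM and at 16.2 and 15.8 against 23.3, 22.9 and 24.6 FPKM (log2 FC 0.73 ± 0.118). *SESN1*, a p53 target whose product sestrin 1 limits mTORC1 signalling, was at 10.1 and 9.87 against 16.1, 19.6 and 22.1 FPKM and at 7.3 and 8.14 against 10.4, 13.6 and 18.6 FPKM (log2 FC 0.88 ± 0.161). In both, the lowest clone of each set was above both controls of the set. *BCKDHB*, a subunit of the mitochondrial branched-chain keto acid dehydrogenase, had a log2 FC of 0.65 ± 0.118, and *PAAF1*, which binds proteasomal ATPases, 0.54 ± 0.0996. *CLMN* (0.92 ± 0.161), *ZNF883* (0.99 ± 0.183), *LINC02246* (0.97 ± 0.18) and *ARL14EPL* (1.53 ± 0.28) completed the group, of which *ARL14EPL* rests on 2 to 33 reads per library. *PAAF1* overlaps another gene on the opposite strand, and the counting is not stated to use strand. On the lower side the genes just outside the threshold were *TIMP3*, an inhibitor of metalloproteases that binds the matrix (80.5 and 83.6 against 36.6, 50.3 and 28.6 FPKM, and 65 and 62.8 against 19.8, 15.8 and 30.5 FPKM, FDR = 0.0571), and *COBLL1* (FDR = 0.0571), both named after their values were seen. Just inside it were *ABCA1* at 0.0488 and *RAPH1* at 0.042.

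*VEGFC* lay below its own controls in all 6 clones. It was at 16.1 and 16 FPKM against 11.6, 11.4 and 10.8 FPKM in the *VEGFA-LNC* set, and at 9.47 and 10.5 FPKM against 5.38, 4.84 and 4.63 FPKM in the *VEGFC-LNC* set. The difference missed the threshold (log2 FC -0.75 ± 0.12, FDR = 0.0636, and 0.0076 to 0.829 over the alternatives), with 1.42-fold lower values in the first set and 2-fold in the second. The 11 tested genes within 5 Mb had median log2 FCs of -0.0251 in the *VEGFA-LNC* set and -0.814 in the *VEGFC-LNC* set, so that the *VEGFC-LNC* clones were lower around *VEGFC* as well as at it. *VEGFA*, read from a single RefSeq transcript (NM_001287044, chromosome 6, 43739722 to 43754223), differed in direction between the sets. It went from 10.2 and 9.62 FPKM to 4.68, 4.71 and 7.35 FPKM in the *VEGFA-LNC* set. In the *VEGFC-LNC* set it went from 3.23 and 3.84 FPKM to 8.85, 7.83 and 5.25 FPKM. No common change was called (log2 FC 0.08 ± 0.343, FDR = 0.92), and the sign turned to -0.18 to -0.04 when either *VEGFC-LNC* control or *VEGFC-LNC* clone 1 or 2 was left out. The difference between the sets was 1.85 ± 0.375 on the log2 scale (FDR = 0.0559). By RT-qPCR, a different measure, the paper reported *VEGFA* as increased in *VEGFA-LNC* deletion clones, and its own RNA-Seq did not call *VEGFA*. Of 8 tested VEGF ligands and receptors none passed (4 at an unadjusted p under 0.05), and their median log2 FC was 0.325. *VEGFC* was a DEG in 5 of the 24 alternatives, among them voom on the recovered reads. *VEGFB* and the co-receptor *NRP1* lay above their own controls in all 6 clones, with log2 FCs of 0.42 ± 0.113 (FDR = 0.156) and 0.28 ± 0.0907 (FDR = 0.21).

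**Figure D2:**
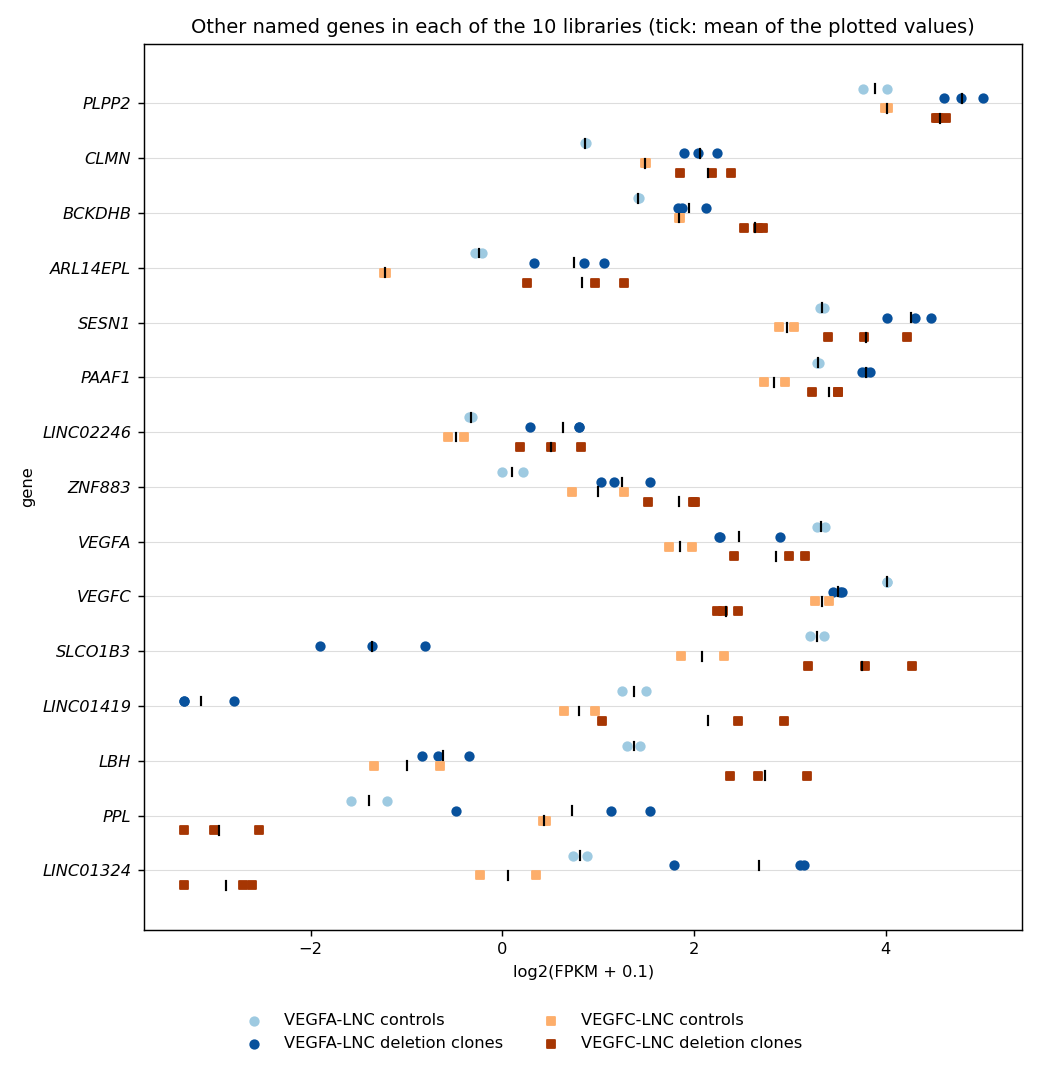
Level of the other named genes as log2(FPKM + 0.1), with 1 point per library, colours for the 4 groups and a tick at the mean of the plotted values. From *PLPP2* to *ZNF883* every clone is right of its own controls, *VEGFC* is left of them in both sets, and from *SLCO1B3* to *LINC01324* the 2 sets move in opposite directions.

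Genes of the DNA damage response showed no DEG. Of 33 tested p53 targets, 33 did not pass in limma. In the same fit 8 had an unadjusted p under 0.05, all higher, beside 2284 of all 13333 tested genes. A log2 FC above 0 was found in 27, and the median over the list was 0.332 (0.0661 in the *VEGFA-LNC* set and 0.6 in the *VEGFC-LNC* set). In 3 of the 33, *BAX*, *RRM2B* and *SESN1*, all clones were above their own controls, 9.09% against 2.63% of all genes. *CDKN1A*, the p53-induced inhibitor of cyclin-dependent kinases, was at 165 and 174 against 93.5, 171 and 210 FPKM and at 40.5 and 38.8 against 52.4, 66.5 and 104 FPKM (FDR = 0.548). *VEGFA-LNC* clone 1 was thus lower than its controls for *CDKN1A*, clone 2 was at their level, and the remaining clones were higher. Of 34 double-strand break repair genes none passed (4 at an unadjusted p under 0.05), and the median log2 FC was -0.299. *XRCC4*, the partner of DNA ligase IV in end joining, was below the own controls in all clones (log2 FC -0.61 ± 0.131, FDR = 0.119).

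Cell cycle genes set *VEGFA-LNC* clone 1 apart from the other 5 clones. The median over 38 mitosis genes, as a log2 difference from the own controls, was 1.17 in that clone and between -2.84 and -0.712 in the others. For 37 DNA replication genes it was 1.1 against -1.77 to -0.472, and for 64 histone genes 1.99 against -2.59 to -0.714. *MKI67*, the proliferation marker Ki-67, was at 8.35 and 7.65 FPKM in the *VEGFA-LNC* controls and at 21.1, 1.33 and 2.78 FPKM in the clones, and at 33.3 and 30.1 FPKM in the *VEGFC-LNC* controls and at 11, 2.59 and 8.55 FPKM in the clones. The control sets differed in it as well. Over all 6 clones every mitosis gene had a negative log2 FC, with a median of -1.27, and so had every replication gene (-0.748), but none of the 38, 37 or 64 genes passed, and 9, 3 and 0 had an unadjusted p under 0.05.

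Interferon-stimulated genes also varied by clone. Of 46 tested, 45 had a log2 FC above 0, none passed (24 at an unadjusted p under 0.05), and the median was 0.771, with 1.1 in the *VEGFA-LNC* set and 0.591 in the *VEGFC-LNC* set. In 12 of them (26.1%, against 2.63% of all genes) all clones were above their own controls. *IFI6*, an interferon-induced mitochondrial protein, was at 35.2 and 33.4 FPKM against 38.8, 458 and 377 FPKM and at 15.4 and 11.3 against 16.4, 41.5 and 145 FPKM (log2 FC 2.13 ± 0.742, FDR = 0.226). *MX2*, a dynamin-like GTPase that restricts viruses, was at 0.527 and 0.256 against 0.639, 20 and 13 FPKM and at 0.036 and 0.042 against 0.212, 0.294 and 2.21 FPKM (FDR = 0.194). In both genes clones 2 and 3 of the *VEGFA-LNC* set and clone 3 of the *VEGFC-LNC* set were far above their controls and clone 1 of each set was the lowest clone. Over the list, the clone medians were 0.1 and 0.196 in clone 1 of the sets and 0.461 to 1.53 in the others.

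**Figure D3:**
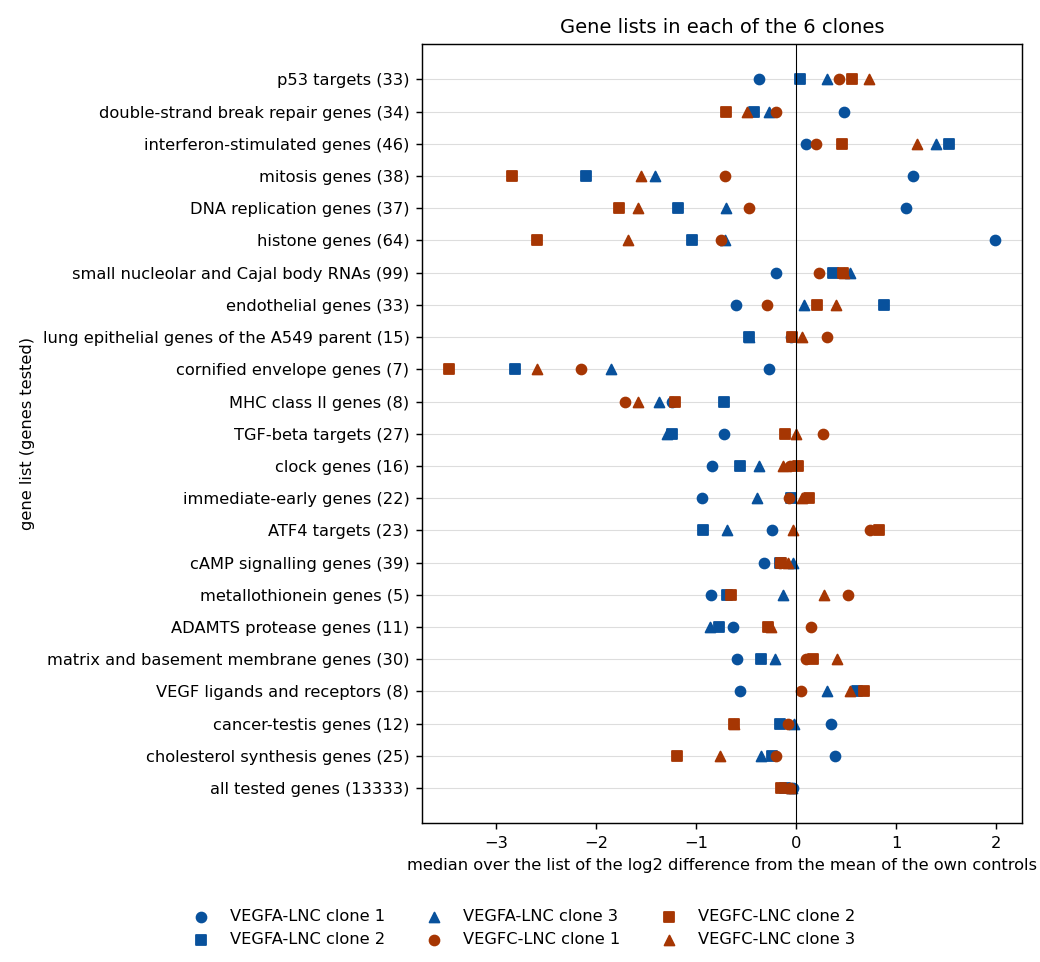
Median over each gene list of the log2 difference between a clone and the mean of its own controls, with 1 point per clone and the number of tested genes in brackets. *VEGFA-LNC* clone 1 lies right of 0 for mitosis, DNA replication and histone genes, at 1.17, 1.1 and 1.99, where the other 5 clones lie left of it, and all 6 clones lie right of 0 for interferon-stimulated genes and left of 0 for MHC class II genes.

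Without *VEGFA-LNC* clone 1, the 5 remaining clones differed from the controls in 1322 genes (9.92%), of which 865 (6.49%) were downregulated and 457 (3.43%) upregulated, and all 14 DEGs stayed. Of the 1322 genes, 360 (27.2%) had all 6 clones beyond their own controls. In the rest at least 1 clone, not always the one left out alone, was not beyond its own controls. The clone left out had been set apart in these same data by the lists counted here, so that the counts describe the other 5 clones and are no independent evidence. In these 5 clones 37 of 38 mitosis genes, 27 of 37 replication genes and 44 of 64 histone genes were downregulated and none upregulated, whereas with all 6 clones 0 of the 38, 37 and 64 genes passed. *MKI67* had a log2 FC of -2.17 (FDR = 0.0157) and *PLK1*, a kinase of mitotic entry, one of -2.13 (FDR = 0.0154). Of the p53 targets 11 were upregulated and none downregulated, such as *FAS*, a death receptor, by 1.63 (FDR = 0.00959) and *MDM2*, the ubiquitin ligase of p53, by 0.73 (FDR = 0.0264). Of the interferon-stimulated genes 27 were upregulated and none downregulated, such as *IFI27* by 2.5 (FDR = 0.00935). Of the small nucleolar and Cajal body RNAs 21 were upregulated and 3 downregulated, and of the repair genes 8 were downregulated, among them *PRKDC*, the catalytic subunit of DNA-dependent protein kinase (-0.91, FDR = 0.00959). Of the 15 lung epithelial genes 2 were downregulated, the keratin genes *KRT8* (-1.06, FDR = 0.0173) and *KRT18* (-1.09, FDR = 0.0161), and 13 did not pass. Of the 33 endothelial genes 6 were upregulated, among them *CDH5* (0.96, FDR = 0.0292), 1 was downregulated, *EMCN* (-4.10, FDR = 0.00959), and 26 did not pass.

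No gene of the remaining lists was a DEG, and with voom on the recovered reads only *SERPINE2*, *ID2* and *COL1A1* were, all lower. Of 27 TGF-beta targets none passed (11 at an unadjusted p under 0.05, of which 10 lower), with medians of -1.2 in the *VEGFA-LNC* set and 0.117 in the *VEGFC-LNC* set. *SERPINE2*, a serine protease inhibitor, was below the own controls in all clones, at 14.4 and 15.3 against 1.02, 1.32 and 2.12 FPKM and at 1.26 and 1.03 against 0.615, 0.174 and 0.818 FPKM (FDR = 0.119). Of 16 clock genes none passed (5 at an unadjusted p under 0.05), and in 4 of them (25%, against 5.78% of all genes), *PER1*, *PER2*, *CRY1* and *BHLHE41*, every clone was below its own controls. *PER1*, a repressor of the clock, was at 7.1 and 6.9 against 1.78, 2.83 and 3.57 FPKM and at 2.23 and 1.89 against 1.32, 1.13 and 1.8 FPKM (FDR = 0.149), a lower level in each clone whose size differed between the sets. Of 22 immediate-early genes none passed (4 at an unadjusted p under 0.05, median -0.242), and *EGR1*, a zinc finger factor induced by growth signals, was at 15.4 and 11.9 against 2.51, 2.03 and 4.44 FPKM and at 2.39 and 2.08 against 1.4, 0.086 and 1.56 FPKM (FDR = 0.18). None passed among 23 ATF4 targets (medians -0.569 and 0.45 in the sets), 5 metallothionein genes (-0.569 and 0.137), 15 lung epithelial genes of the A549 parent (-0.4 and 0.203) and 12 cancer-testis genes (0.0298 and -0.458), where 2, 1, 4 and 3 genes had an unadjusted p under 0.05. *MAGEC2*, of the last list, was at 8.15 and 9.53 against 7.64, 3.35 and 3.44 FPKM and at 9.21 and 10.4 against 1.12, 0.761 and 1.04 FPKM (FDR = 0.108).

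Few changes were called as common to both deletions. Each set had its own controls, and across the 13333 genes the log2 FCs of the sets had Pearson's r of 0.14 and Spearman's rho of 0.091 and shared their sign in 53.9% of genes. Of 901 genes that differed by at least 1.5-fold in both sets, 589 (65.4%) did so in the same direction, 209 higher and 380 lower. In 1109 genes (8.32%) the clones of the sets lay beyond their own controls in opposite directions, about as many as the 770 and 350 genes with the same direction together. The deletion effects differed by an FDR under 0.05 and at least 1.5-fold in 194 genes (1.46%), and in 141 of these the sets moved in opposite directions without overlap. The genes lower in both sets had, with no test made, a median transcript of 3490 against 2790 bases and a median genomic span of 35.3 against 25 kb, and those higher in both sets had 2950 bases and 23.5 kb.

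**Figure D4:**
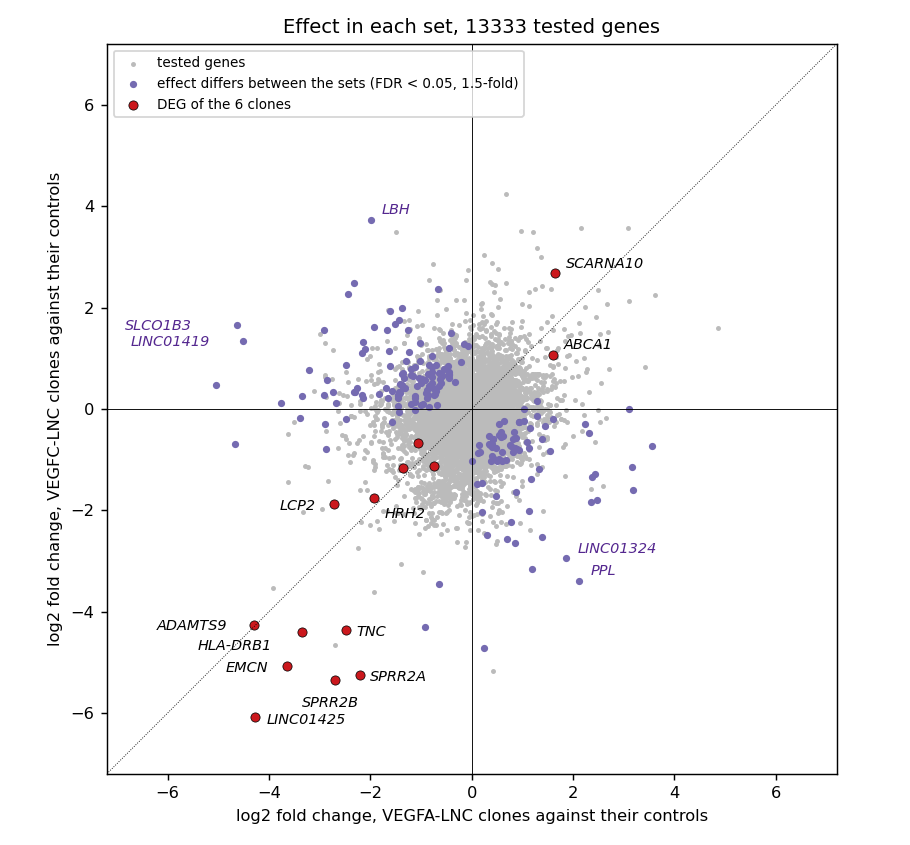
Log2 FC of each of the 13333 tested genes in the *VEGFA-LNC* set (horizontal) and the *VEGFC-LNC* set (vertical), with the 14 DEGs of the 6 clones in red and the 194 genes whose effect differs between the sets in purple. The DEGs lie in the quadrants of equal sign, *ADAMTS9* next to the dotted line of equal effect at -4.29 and -4.26 and *SPRR2A* and *SPRR2B* well below it, and the purple points lie mostly in the quadrants of opposite sign.

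The 5 largest opposite effects were in genes that are not related to each other by position. *SLCO1B3* (chromosome 12), a hepatic uptake transporter that tumours also express, went from 9.15 and 10.1 to 0.168, 0.29 and 0.472 FPKM in the *VEGFA-LNC* set and from 3.53 and 4.87 to 19.2, 13.7 and 9.05 FPKM in the *VEGFC-LNC* set, a difference of 6.3 ± 0.528 on the log2 scale (FDR = 0.00325). *LBH* (chromosome 2), a transcription cofactor, went from 2.37 and 2.61 to 0.458, 0.684 and 0.529 FPKM and from 0.539 and 0.296 to 8.93, 5.09 and 6.27 FPKM (5.73 ± 0.423, FDR = 0.00227). *PPL* (chromosome 16), encoding periplakin of the cornified envelope, went the other way, from 0.333 and 0.235 to 0.617, 2.8 and 2.09 FPKM and from 1.24 and 1.27 to 0.072, 0 and 0.024 FPKM (-5.52 ± 0.761, FDR = 0.0159). The noncoding RNAs *LINC01419* and *LINC01324* differed by 5.86 ± 0.688 (FDR = 0.00849) and -4.81 ± 0.611 (FDR = 0.012). In the common comparison their FDRs were 0.411 or more, while the fit of 4 group means called *SLCO1B3* as lower in the clones (log2 FC -1.49, FDR = 0.0483).

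Genes of a few chromosome arms were lower or higher as a group. On 16p, 58 of 360 tested genes (16.1%, against 5.78% of all genes) lay below the own controls in every clone of both sets, and on 16q 35 of 267 (13.1%). The arm median of the log2 difference was -0.554 to -0.339 on 16p in the *VEGFC-LNC* clones and -0.22 to -0.0392 in the *VEGFA-LNC* clones. On 12p it was -0.663 to -0.391 in the *VEGFC-LNC* clones and -0.0732 to 0.0305 in the *VEGFA-LNC* clones. The medians over all genes were -0.157 to -0.0289 in the 6 clones. On the higher side stood 11q with 40 of 520 genes (7.69%, against 2.63%) and 10q with 27 of 399 (6.77%). *GLIPR1* on 12q, *SCARNA10* on 12p and *EMCN* and *TRIML2* on 4q lie on arms with lower medians in the *VEGFC-LNC* set (-0.218, -0.531 and -0.291), and their changes in the *VEGFA-LNC* set, where these medians were -0.0687, -0.00922 and -0.111, were measured beside them. Within 5 Mb of the gene, the median in the *VEGFC-LNC* set was -0.357 for *GLIPR1*, -0.608 for *SCARNA10* and -0.181 for *EMCN*. It was -0.276 around *SPRR2A* and *SPRR2B* on 1q. The part of chromosome content in these values was not tested.

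**Figure D5:**
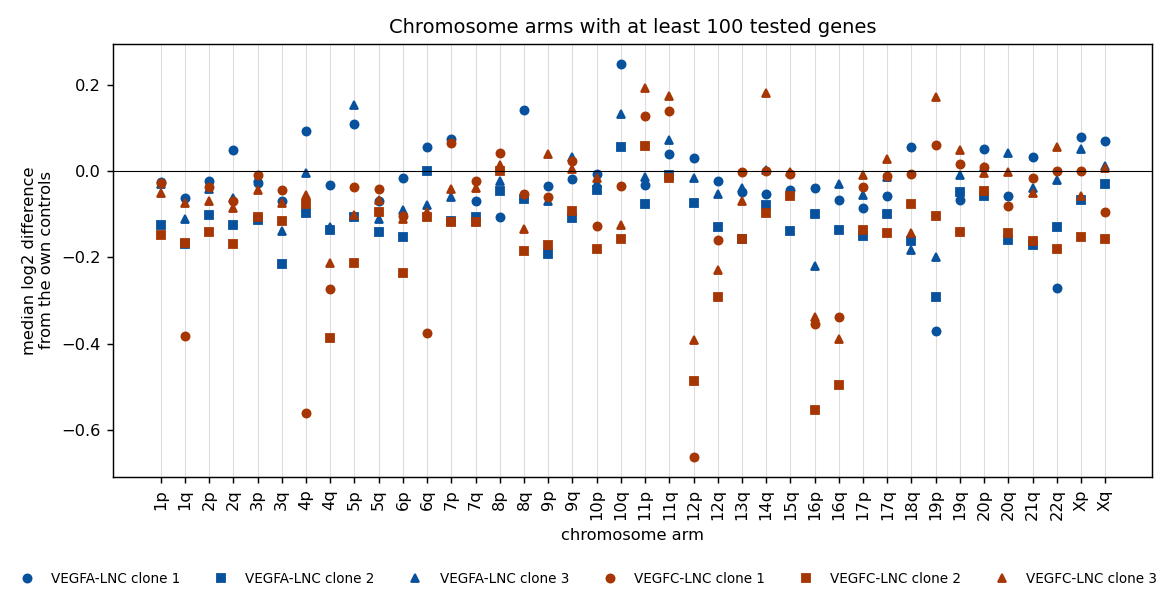
Median log2 difference of each clone from the mean of its own controls, over the tested genes of every chromosome arm with at least 100 of them, with 1 point per clone. The 3 *VEGFC-LNC* clones lie below the *VEGFA-LNC* clones on 12p, 16p and 16q, between -0.663 and -0.337, and *VEGFC-LNC* clone 1 also on 4p at -0.562.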

How the data were processed

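FPKM values per RefSeq transcript on hg19, with transcript lengths, were deposited by the authors in 1 table. Per the labels and the methods, reads had been trimmed with Trim Galore (version 0.4.4) and aligned to GRCh37 with STAR (version 2.5.4b). The program that made the table is not given in the sources used here. FPKM multiplied by length gave whole reads in 100% of the values checked, within 0.1 read, in every library, which gave the depths. Intervals of counting error are not given, and floors cover counting error only. The count test that the methods describe was not run on these FPKM values, and voom on the recovered reads was an alternative.

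The transcript with the highest mean FPKM stood for each symbol. Rows without a symbol (42, 0.0297% of reads) were left out. log2(FPKM + 0.1) was fitted in limma (version 3.58.1, R version 4.3.3), with set as covariate and eBayes with trend (7 residual degrees of freedom, median prior 3.04). Effects within a set and their difference came from a fit of the 4 groups (6 residual degrees of freedom). FCs are on this scale and understate those of low genes. SEs are limma's. The fit was tested on simulated data with the same spread in clones and controls. The spreads differed in the real data, so that the simulation gives no error rate for them.

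The members and lists were chosen with earlier results of these data known. Named genes are up to 15 DEGs per direction with the largest FC and no overlap in either set, completed to 10 by the smallest p, *VEGFA*, *VEGFC*, DEGs in a list, and the 5 largest opposite differences. Other list members were named after their values were seen, and a few genes are not reported here. Alternatives were other pseudocounts (1 and 0.01), filters, scaling, covariates, averaged controls, a replicate block, voom, weights, the longest transcript and leaving out each library. The labels number clones and controls alike, but deviations of same-numbered libraries had correlations of -0.043 to 0.047, so that the numbers were not taken as pairs. Promoters came from RefSeq (GRCh38.p14).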

Additional observations from a re-analysis of the deposited data

Results flagged for a closer look

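Deletion effects that differed between the sets were tested as an interaction. There were 194 such genes. *SPRR2B* and *SPRR2A* were lower in both sets, with fitted differences (effect in the *VEGFC-LNC* set minus that in the *VEGFA-LNC* set, log2) of -2.65 and -3.04. The *VEGFC-LNC* clones had no reads of either, so that these differences depend on the pseudocount. Their direction is not shown for either gene at a floor of 3 reads per library. Opposite effects were found for *SLCO1B3* (6.3), *LINC01419* (5.86), *LBH* (5.73), *PPL* (-5.52) and *LINC01324* (-4.81).

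Of 58 groups of 4 controls or 6 clones examined for a sample far from the others by Dixon's criterion, 2 had such a sample, where chance gives about 1 in 20. *VEGFA-LNC* clone 2 kept more *HLA-DRB1* than the other clones, with a log2 difference from its own controls of -1.43. *VEGFA-LNC* control 1 had the lowest *PLPP2* of the 4 controls, 13.5 FPKM.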

How the results depend on the processing

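Without the filter 21 genes were called, and only 9 of the 14 were among them. In number alone, the count of 14 DEGs held to within 1.5 times under a pseudocount of 1, no filter, a filter in 4 libraries, median-of-ratios scaling and the longest transcript. It was 1 with a pseudocount of 0.01, 2 without the set covariate, 89 with 4 group means, 57 with voom on the recovered reads, 1538 with array weights and 1 with the controls of a set averaged. Weights for clones and controls (166) and 4 group means with averaged controls (2) were added after seeing the data. Leaving out 1 library gave 2 to 1322. The share of upregulated DEGs was 14.3%, and 34.9% with array weights. *ADAMTS9* was called in every fit. A scaling by median of ratios would raise the clones against the controls by 0.0529 and 0.0905 (log2). The causes were not tested.

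The 194 genes whose effects differed between the sets became 0 with averaged controls (limma, 689 at an unadjusted p under 0.05) and 5 to 694 with 1 library left out. With the replicate block, which uses 8 libraries, 1 DEG (*ADAMTS9*) and 0 differing genes (1816 at an unadjusted p under 0.05) were called. No named gene that was a DEG changed sign. *VEGFA*, *LINC01419*, *PPL* and *LINC01324*, which were not, did in 1 to 4 fits. Depth limits genes of few reads such as *HRH2*, *SPRR2A* and *SPRR2B*.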
